A study of Saccharomyces cerevisiae with 72 samples.

Results

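The 16 chromosomes of budding yeast (Saccharomyces cerevisiae) were followed through S phase in 1-kb bins, and chromosome V is described here from its left end through its centromere, CEN5, to the right arm, where the origin ARS501 lies. Its members were all bins of chromosome V listed in each of the 44 replication timing tables, 546 of 11277 bins in the genome. A further 5 bins of the chromosome were listed in only some tables, among them the bin 152001-153000 at CEN5 and the bin 116001-117000, which holds the pyrimidine synthesis gene URA3 and was missing from 7 tables, 6 of strain D and 1 of strain B. No table listed the bins 20001-23000 (DSF1 and the hexose transporter gene HXT13), 444001-449000 (YER138C) or 493001-498000 (YER160C), the last pair holding genes of Ty1 retrotransposons. The listed bins ran from position 6001 to position 570000, so the outermost telomeric sequence was not covered.

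All strains were haploid MATa cells of the W303 background. They shared a deletion of SWE1, a deletion of CSE4 covered by an HA-tagged CSE4 copy at LEU2, an auxin-inducible degron (AID) on Cdc55 and the plant F-box protein osTir1 that degrades AID proteins when auxin (IAA) is present. Strain B carried the myc-tagged sld3-R(2A) allele with an untagged PPH3. Strain C carried an AID on Pph3 and myc-tagged SLD3. Strain D combined the Pph3 AID with sld3-R(2A), and strain A had myc-tagged SLD3 with an untagged PPH3. Cells were arrested in G1 with alpha factor, the AID proteins were depleted with IAA and a temperature shift, and cells were released into medium with IAA. All cultures, A included, lacked intact PP2A-Cdc55 through this depletion, and degradation cannot be read from DNA ratios. Each strain was 1 culture with 1 library at each of 11 time points from 15 to 80 minutes, so differences between strains have no replicate check and carry no p-value. Read counts are not part of the tables and sequencing depth is unknown. The noise of single bins of chromosome V, from neighbouring bins of a library divided by its median, was 0.0357 to 0.0744.

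A yeast chromosome is copied from many origins, which are licensed in G1 and fire at different times in S phase. Sld3 is an initiation factor that joins the loaded replicative helicase, and the kinases of S phase act on it. Pph3 is the catalytic subunit of the phosphatase PP4 and Cdc55 a regulatory subunit of PP2A, both of which can remove phosphates placed by kinases. In budding yeast, pericentromeric DNA is known to replicate early and DNA near telomeres late, and the subtelomeric ARS501 is a much-studied example of a late-firing origin. The strains ask how the Sld3 allele and the loss of phosphatase activity alter this timetable.

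Each value is the ratio of S-phase to G1 reads in a bin, multiplied by the authors with a scale factor for the library. Unreplicated DNA would then lie near 1 and replicated DNA near 2. Replication time (Trep) is the minute at which the 5-kb running mean of this ratio, made monotone in time, crossed 1.5. The noise of a single bin carried through to Trep was 1.25 minutes in B, 1.19 in C, 1.24 in D and 1.23 in A. It was 1.79 minutes for the difference of D from A. This noise covers scatter between neighbouring bins and not the spread between cultures. It was taken from Trep computed without the running mean, as was each SD over single bins of Trep in the windows below. No noise was estimated for the smoothed Trep values themselves.

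Chromosome V replicated early among the chromosomes in every strain. Its median Trep was 36.3 minutes in B, 33.2 in C, 40.1 in D and 29.2 in A, against 39.5 in B, 36.6 in C, 44.4 in D and 32.96 in A over the other 15 chromosomes. Counted from the earliest, it ranked 3 of 16 in B and C, 4 in D and 2 in A. By 45 minutes 87.0% of its bins had passed Trep in D, against 52.8% of the bins of the other chromosomes in D. At 50 minutes the shares in D were 99.5% on chromosome V and 72.8% elsewhere. In A the same gap stood at 30 minutes, with 55.7% on chromosome V and 33.9% elsewhere.

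**Figure D1:**
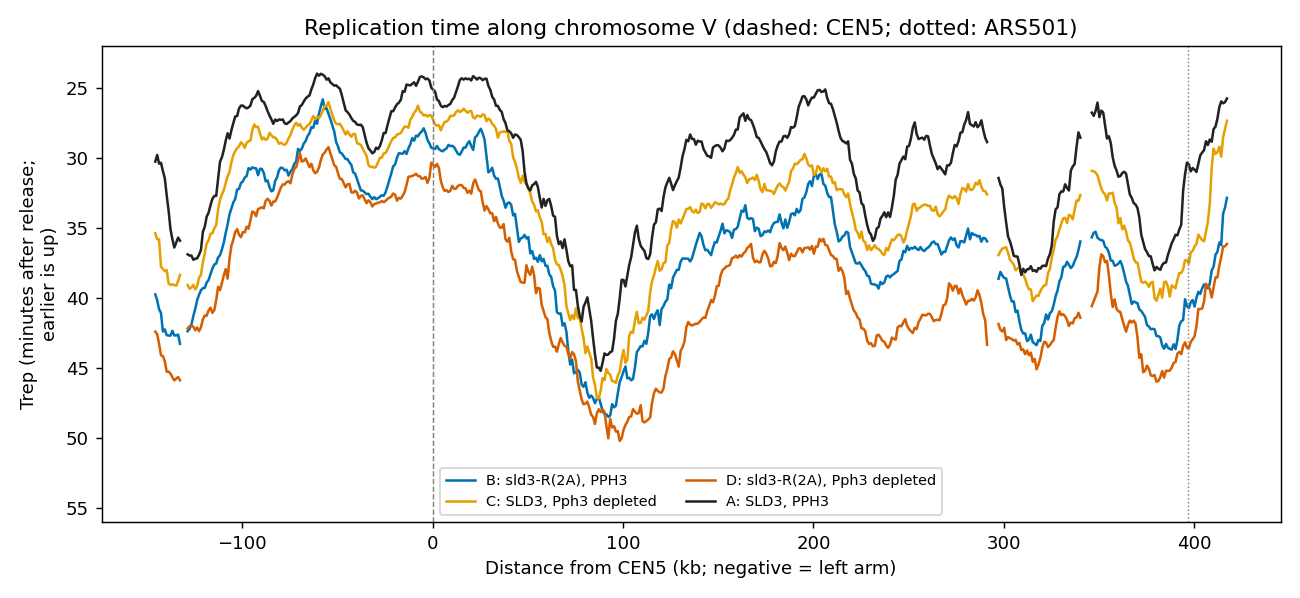
Replication time (Trep, in minutes after release, earlier times upward) of chromosome V bins against distance from CEN5 in kb, 1 line per strain, with CEN5 dashed and ARS501 dotted. The broad early region around CEN5, the single deep late region on the right arm and the late profile of D along most of the chromosome are visible, and medians were 36.3 minutes in B, 33.2 in C, 40.1 in D and 29.2 in A.

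All 546 bins were later in B than in A and in D than in A, and 544 of 546 were later in C than in A. Relative to A the median delay was 5.71 minutes in B, 2.71 in C and 8.68 in D. Corresponding medians over the other 15 chromosomes were 6.45 minutes for B, 3.58 for C and 11.3 for D. D was later than B in 536 bins, by a median of 2.83 minutes, and later than C in all 546, by a median of 5.79 minutes. Elsewhere 97.27% of bins were later in D than in B and 99.71% later in D than in C. The interaction is how much more sld3-R(2A) delayed a bin with Pph3 depleted (D less C) than with Pph3 present (B less A). Its median was -0.01 minutes on chromosome V and 1.08 minutes elsewhere. On chromosome V 271 bins were above 0 and 275 below. The share above 0 was 49.63% on chromosome V and 70.15% on the other chromosomes. With a threshold set halfway up the range of each bin the chromosome V interaction was 0.86 minutes, and with common scale factors for the 4 strains the delays shrank to 2.36 minutes in B, 1.50 in C and 3.45 in D. Hence the size of the delays depends on the deposited scale factors.

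**Figure D2:**
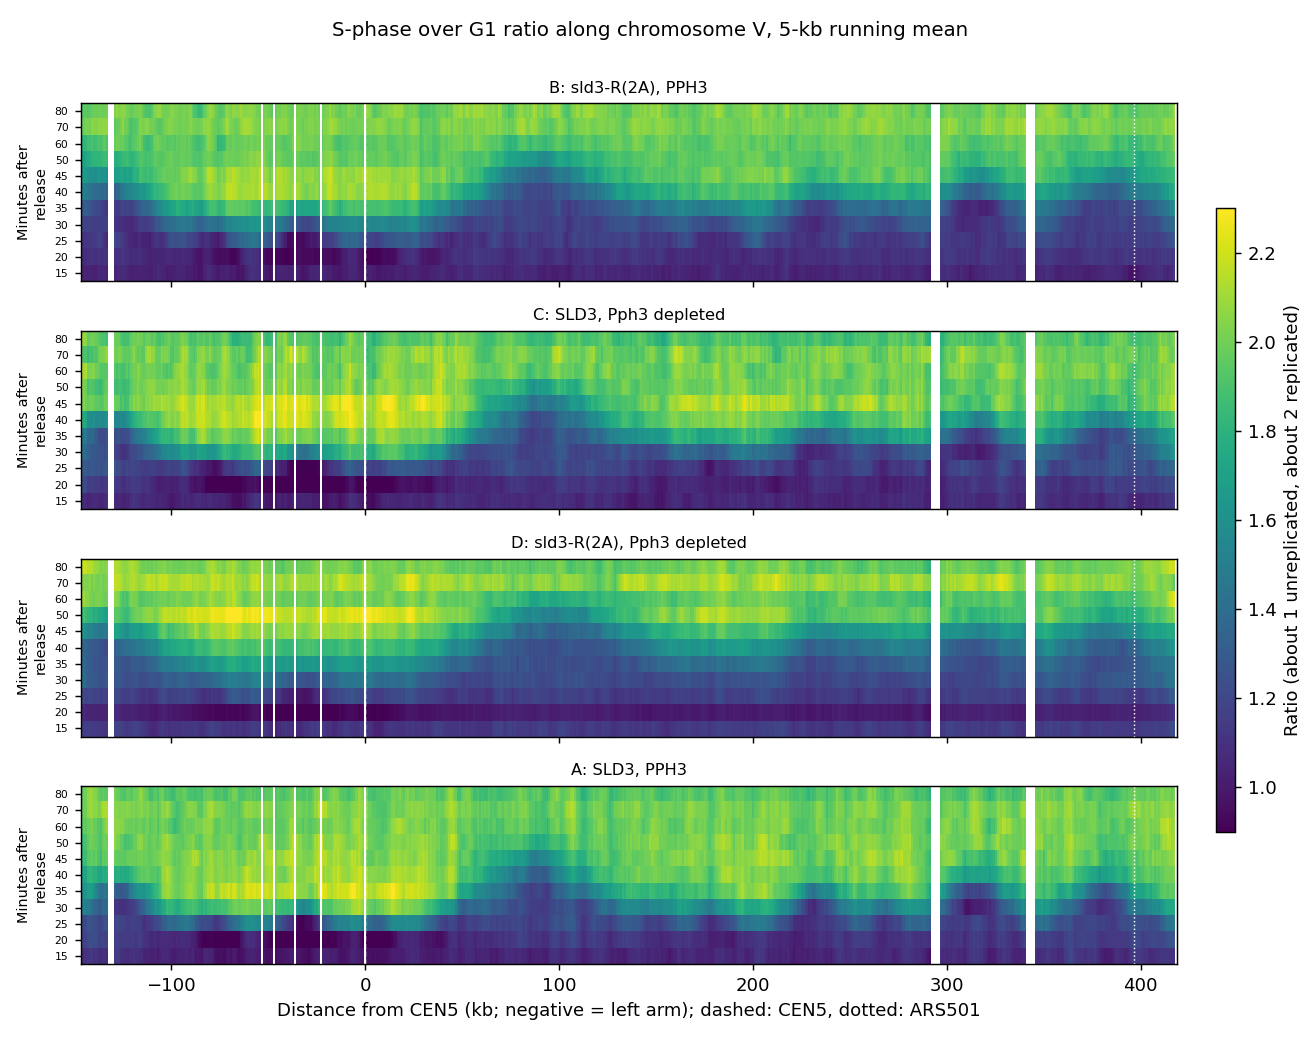
Ratio of S-phase to G1 reads (colour, 5-kb running mean) along chromosome V, with distance from CEN5 in kb on the horizontal axis and minutes after release on the vertical axis, 1 panel per strain. White columns are bins not listed in all 44 tables, and the last region to brighten lies on the right arm, with its 11 latest bins centred about 92.3 kb from CEN5 and the latest single bin of D just beyond them.

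Long delays were missing from chromosome V. No chromosome V bin was more than 15 minutes later in D than in A, while 23.8% of all bins tested were. The share on the other 15 chromosomes ranged between 1.74% on chromosome III and 46.7% on chromosome IV. Bins more than 10 minutes later in D than in A numbered 177 on chromosome V, or 32.4%, against 58.5% of all bins tested. In B 351 bins of chromosome V (64.3%) were over 5 minutes later than in A, against 73.5% of all bins tested, and in C 66 bins (12.1%) were, against 28.1% of all bins tested. Bins over 5 minutes later in D than in B numbered 49 (8.97%), against 44.6% of all bins tested, and those over 5 minutes later in D than in C numbered 368 (67.4%), against 77.9%. The count over 15 minutes was small rather than 0 under some other settings. It was 19 bins without smoothing, 5 with the 15-minute library as denominator and 4 with the midpoint threshold. Without the 50-minute libraries it was 3 and without the 30-minute libraries 1. With common scale factors no chromosome V bin was over 10 minutes later in D than in A. Over all bins the share was then 10.5% over 10 minutes and 0.755% over 15 minutes. The size of these contrasts thus rests on the deposited factors.

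The latest bin of chromosome V in D had a Trep of 50.2 minutes, the lowest latest time of any of the 16 chromosomes. The latest bins of the other chromosomes in D lay between 52.6 minutes (chromosome IX) and 65.1 minutes (chromosome XII). In A, the latest bin of chromosome V had 45.2 minutes and ranked 4 of 16 from the lowest. The rank of chromosome V in D held with a 9-kb window, the midpoint threshold and common scale factors, while the 15-minute denominator gave rank 2, with 52.9 minutes on chromosome V.

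**Figure D3:**
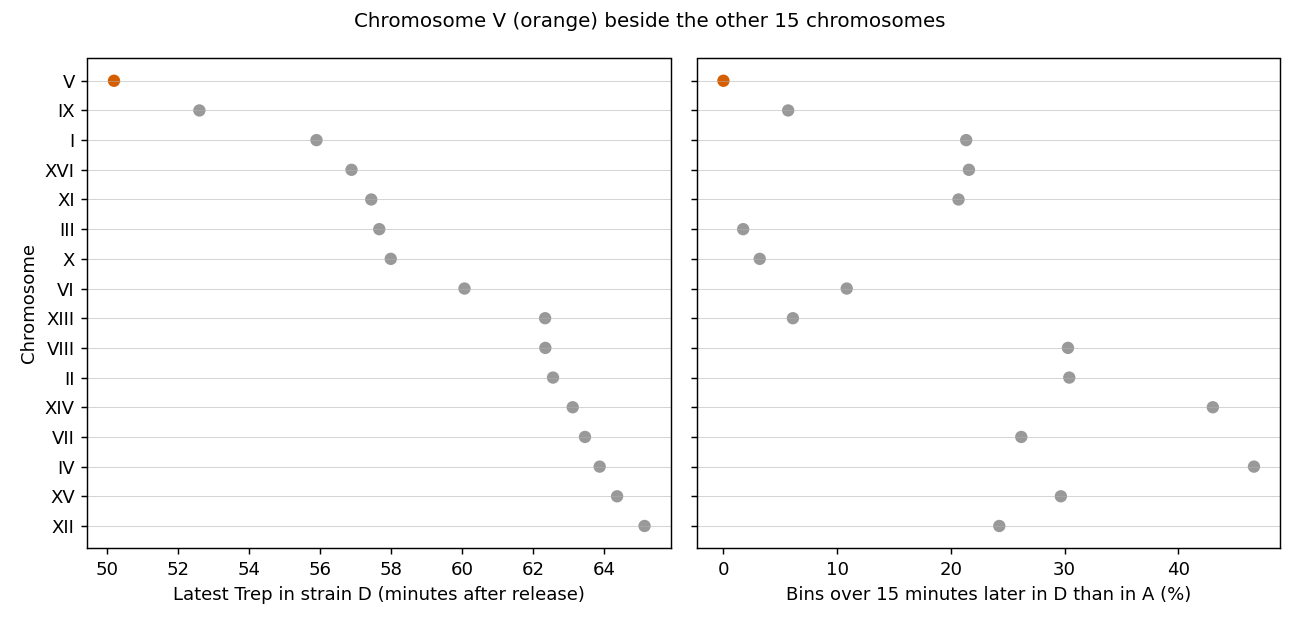
For each of the 16 chromosomes, the left panel gives the latest Trep in strain D in minutes and the right panel the percentage of bins more than 15 minutes later in D than in A, with chromosome V in orange. Chromosome V has the lowest value in both, 50.2 minutes and 0%.

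Late bins of chromosome V were delayed less than late bins elsewhere, also within classes of absolute replication time. Bins were placed in classes by their mean Trep in B and C, which enter neither side of the difference of D from A. In bins up to 30 minutes the delay in D was 6.50 ± 1.46 minutes on chromosome V (median and SD over 103 bins) and 6.62 ± 2.09 minutes on the other chromosomes (1102 bins). Between 30 and 35 minutes it was 9.58 ± 2.44 minutes on chromosome V (192 bins) and 9.95 ± 3.16 minutes elsewhere (2441 bins). Up to that time, chromosome V and the rest differed by less than the spread over bins.

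The gap opened in later classes. Between 35 and 40 minutes the delay was 9.67 ± 2.27 minutes on chromosome V (155 bins) and 11.5 ± 3.99 minutes elsewhere, a gap still within the spread over bins. Between 40 and 45 minutes it was 8.04 ± 2.49 minutes on chromosome V (77 bins) and 13.2 ± 4.78 minutes elsewhere. Beyond 45 minutes it was 5.61 ± 2.24 minutes on chromosome V (19 bins) and 15.6 ± 4.73 minutes elsewhere. These 19 bins all lay in 1 late region, between 81.3 and 102.3 kb right of CEN5. As neighbours under a 5-kb running mean they describe a single place, and their SD is not a spread over separate late regions. On chromosome V the latest Trep was 48.5 minutes in B and 47.2 in C, against 55.7 in B and 54.3 in C elsewhere. Neither this class nor the set of all bins later than 40 minutes is thus matched in time. Over all bins later than 40 minutes the median delay of chromosome V, 7.58 minutes, was the lowest of the 16 chromosomes, whose other medians ran from 10.0 to 16.6 minutes. It was also the lowest with a 9-kb window (7.77 minutes), the midpoint threshold (8.66 minutes) and the 15-minute denominator (8.79 minutes). With common scale factors it was 0.79 minutes against 6.39 minutes over the other chromosomes, which is rank 2 of 16.

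The label of a run from an early centromere to a late right end was checked against the values. The centromere was early, and ARS501 was late within chromosome V but not within the genome. The CEN5 window took the 19 listed bins within 10 kb of CEN5 (142001-162000, from MIT1 to YND1). CEN5 itself was placed in the gap between IRC22 and MNN1, a mannosyltransferase gene, at 150979-153519. At 25 minutes the mean ratio of this window was 1.27 ± 0.12 in B, 1.24 ± 0.10 in C, 1.20 ± 0.08 in D and 1.47 ± 0.13 in A (SD over bins). At 30 minutes it was 1.56 in B, 1.87 in C, 1.43 in D and 2.04 in A. At 40 minutes it had reached 2.11 in B, 2.18 in C, 1.86 in D and 2.09 in A. In D it was 1.10, 0.92, 1.20, 1.43, 1.66, 1.86, 2.08, 2.25, 1.99, 2.10 and 2.00 over the 11 time points. In A it was 0.99, 0.91, 1.47, 2.04, 2.2, 2.09, 2.05, 2.02, 2.01, 2.00 and 1.95. The ratio passed 2 by 30 minutes in A and by 45 minutes in D.

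Median Trep of the CEN5 window was 29.1 minutes in B, 27.0 in C, 31.4 in D and 25.0 in A, with an SD over single bins of 0.79 to 1.32 minutes. The delay relative to A was 3.64 minutes in B, 1.88 in C and 6.21 in D. In C the delay is close to that SD, and it was 1.12 minutes without the 25-minute libraries and 2.66 minutes without the 30-minute libraries. In every strain CEN5 lay among the first bins of the genome, with 4.19% of all bins earlier in B, 3.64% in C, 4.34% in D and 5.45% in A. Common scale factors gave a delay of 1.59 minutes in B and 4.07 in D.

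The ARS501 window took the 10 bins within 5 kb of the stated position (544001-554000). Its central bin, 549001-550000, holds DMC1, the meiotic recombinase gene, and ISC10, and the window also holds PDA1, a pyruvate dehydrogenase subunit gene, and BMH1, a 14-3-3 protein gene. At 35 minutes the mean ratio was 1.21 ± 0.04 in B, 1.36 ± 0.08 in C, 1.30 ± 0.06 in D and 1.65 ± 0.16 in A. At 40 minutes it was 1.47 in B, 1.67 in C, 1.35 in D and 1.85 in A, and at 50 minutes 1.80 in B, 1.89 in C, 1.78 in D and 1.98 in A. Strains B and D were still below C and A at 50 minutes in this scaled ratio. Divided by the library median, in which the scale factors cancel, the window at 50 minutes had 0.97 in B, 0.99 in C, 1.02 in D and 1.01 in A. In D it was thus not behind the bulk of its own genome at that minute. In D the course over the 11 time points was 1.13, 1.03, 1.14, 1.30, 1.30, 1.35, 1.58, 1.78, 1.90, 2.02 and 2.03. In A it was 1.11, 1.18, 1.24, 1.45, 1.65, 1.85, 1.93, 1.98, 1.97, 2.07 and 1.97.

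Median Trep at ARS501 was 40.6 minutes in B, 37.3 in C, 43.3 in D and 31.0 in A, with an SD over single bins of 1.61 to 2.84 minutes. Within chromosome V this was late in the altered strains, as 21.8% of its bins were later than this window in B, 23.3% in C, 22.7% in D and 38.1% in A. Over the genome it was near the middle, as 44% of all bins were later in B, 45.0% in C, 53.8% in D and 60.2% in A. The delay relative to A was 9.29 minutes in B, 5.70 in C and 11.9 in D, each above the median of chromosome V. D was later than B there by 2.57 minutes, which common scale factors reversed to -0.72 minutes and which fell to 0.94 minutes without the 40-minute libraries. Common scale factors also brought the delay to 5.04 minutes in B and 3.13 in D. With the 15-minute library in place of G1 as denominator the delay in B was 5.62 minutes, and the window's ratio at 15 minutes over the library median was 0.95 in B, 1.00 in C, 1.02 in D and 1.05 in A.

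The step in Trep between the landmarks, ARS501 less CEN5, was 11.5 minutes in B, 10.3 in C, 11.9 in D and 5.99 in A. With the deposited factors all 3 altered strains had a wider step than A. In D the step was 8.75 minutes with common scale factors, a value not comparable with the 5.99 minutes of A above. With common factors the delay of D relative to A was shorter at ARS501 than at CEN5. The wider step in D relative to A was thus not seen in those delays. No local early zone stood at ARS501 in any strain at the ratio of 1.5. With the midpoint threshold strain B alone had one nearby, at 547001-548000 (PDA1), with a Trep of 39.4 minutes and a prominence of 1.26 minutes, about that of the noise of a single bin.

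**Figure D4:**
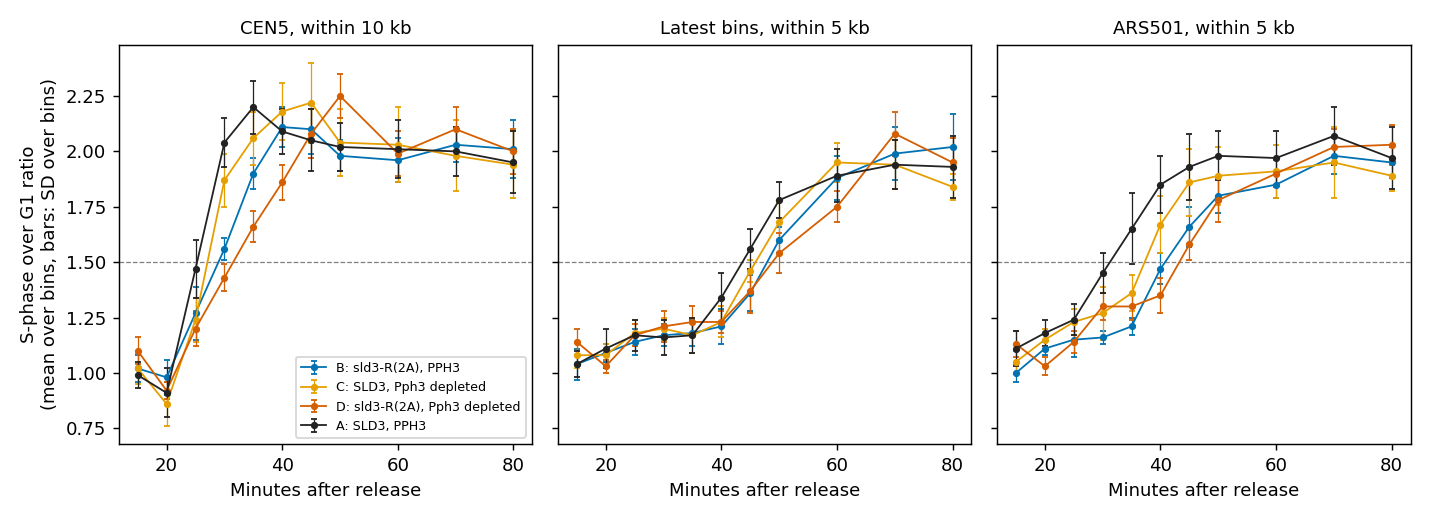
Mean ratio of S-phase to G1 reads against minutes after release in the CEN5 window, the latest region of the chromosome and the ARS501 window, 1 line per strain with the SD over bins as bars and the ratio of 1.5 dashed. At 40 minutes the mean at CEN5 is 1.86 in D and 2.09 in A, and at ARS501 1.35 in D and 1.85 in A.

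Beyond ARS501, bins became earlier toward the right end. In the last listed bin, 569001-570000, Trep was 32.8 minutes in B, 27.3 in C, 36.1 in D and 25.8 in A. The last 18 bins had a median Trep of 38.5 minutes in B, 32.0 in C, 39.2 in D and 28.7 in A. B was 9.62 minutes later than A there, the longest delay of B in any 50-kb segment of the chromosome, and the interaction was -3.09 minutes. The delay of D relative to A was 10.9 minutes in this segment, and that of D relative to B 1.55 minutes. With common scale factors the delay of D there was 2.63 minutes, and with the midpoint threshold 12.5 minutes. The midpoint threshold also set D farther from B. In the bin 559001-560000 it gave 42.0 minutes in D and 40.3 in B, against 39.2 in D and 39.3 in B at the ratio of 1.5. In the last listed bin it gave 41.05 minutes in D and 35.3 in B. The small delay of D relative to B at this end thus depends on the threshold.

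The latest DNA of chromosome V lay on the right arm, about 92.3 kb from CEN5. In the 11 bins 239001-250000 (MEI4, ACA1, SPO73, SAP1 and CAJ1) median Trep was 47.8 minutes in B, 45.9 in C, 49.1 in D and 43.95 in A. These bins were chosen for being late, so their level is a description. At 45 minutes their mean ratio was 1.36 ± 0.08 in B, 1.46 ± 0.05 in C, 1.37 ± 0.10 in D and 1.56 ± 0.09 in A. At 60 minutes it was 1.88 in B, 1.95 in C, 1.75 in D and 1.89 in A. At both minutes the strains lay closer together than at ARS501 at 40 minutes. At 60 minutes, however, every strain was nearer to 2, the level of replicated DNA, than at ARS501 at 40 minutes. The stages of replication are then unlike, and the closeness at 60 minutes says little about delay.

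The bin with the smallest delay in D was in this region. It was 240001-241000, within ACA1, a gene for a bZIP factor of the ATF/CREB family. Its Trep was 47.6 minutes in B, 46.6 in C, 48.1 in D and 45.2 in A, a delay of 2.94 minutes in D. Over the whole region the delay was 4.32 minutes in B, 1.90 in C and 5.05 in D. In D the latest bin was 250001-251000 (ISD11), where Trep was 50.2 minutes in D and 40.0 in A. Inside the region, at 244001-245000 (SAP1), D had 50.01 minutes, a gap within the noise of single bins. The 50 kb to the right of this region were among the most delayed segments of the chromosome.

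The delay in D varied along the chromosome in broad blocks. In segments of 50 kb counted from CEN5, which do not depend on the values, the delay of D relative to A was 5.88 ± 1.19 minutes in the first 50 kb of the left arm and 5.68 ± 1.64 minutes in the next (median and SD over bins). Toward the left end it was 8.58 ± 2.54 minutes. The left arm as a whole had a delay of 6.26 minutes, with 10 of 139 bins over 10 minutes.

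On the right arm the delay was 9.30 minutes, with 167 of 407 bins over 10 minutes. It was 7.93 ± 1.33 minutes next to CEN5 and 6.65 ± 1.84 minutes in the segment that holds the latest DNA. It then stood at 12.4 ± 1.07 minutes between 100 and 150 kb, where 49 of 50 bins passed 10 minutes. The next segments had 8.98 ± 1.07 and 9.83 ± 1.26 minutes, and the segment between 250 and 300 kb 12.1 ± 1.59 minutes. Between 300 and 350 kb it was 6.96 ± 2.62 minutes. The blocks at 100 to 150 kb and at 250 to 300 kb thus exceeded their neighbours by more than the SD over bins.

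**Figure D5:**
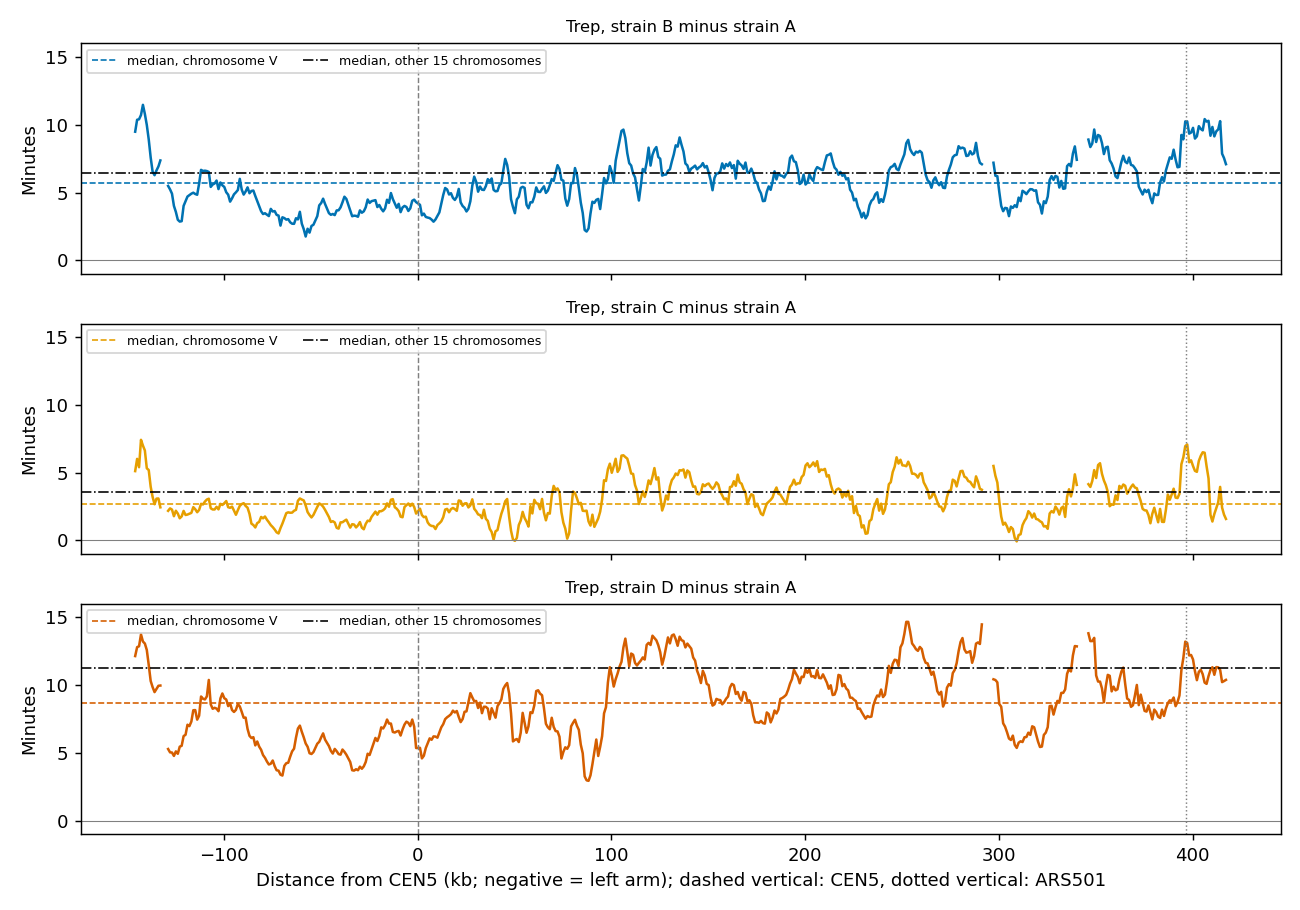
Difference of Trep in minutes for B, C and D, each less A, against distance from CEN5 in kb, with the median of chromosome V and of the other 15 chromosomes as horizontal lines. In D the left arm and the first 100 kb of the right arm lie mostly under 10 minutes, and the highest value is 14.7 minutes.

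Some of this map rests on the scale factors and some does not. The delay in D was 3.04 minutes longer on the right arm than on the left with the deposited factors and 0.25 minutes with common ones. With common factors the segment 50 to 100 kb right of CEN5 was earlier in D than in A, at -1.53 minutes. The segments at 100 to 150 kb (4.78 minutes) and 250 to 300 kb (5.01 minutes) still had longer delays than their direct neighbours on the left and right. They no longer stood clear of the first 50 kb right of CEN5, which had 4.81 minutes with common factors and 7.93 with the deposited ones. Another view compares ratios over the library median, in which the factors cancel, at minutes of like bulk DNA content. Those minutes were still picked by the factors, at 40 minutes in B and C, 45 in D and 35 in A, where they were 1.573 in B, 1.671 in C, 1.588 in D and 1.634 in A.

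At like bulk content the early region around CEN5 had similar values in the 4 strains, and in D the extremes were closer together. In the left arm segment 50 to 100 kb from CEN5 the ratio over the median was 1.35 in B, 1.28 in C, 1.35 in D and 1.32 in A. In the latest segment, 50 to 100 kb to the right, it was 0.859 in B, 0.862 in C, 0.993 in D and 0.854 in A. Between 250 and 300 kb it was 1.15 in B, 1.15 in C, 1.09 in D and 1.17 in A, and between 300 and 350 kb 0.966 in B, 1.02 in C, 1.04 in D and 0.886 in A. Both late segments thus stood higher, and the segment between 250 and 300 kb lower, in D than in A. The SD of this ratio along the chromosome was 0.173 in B, 0.150 in C, 0.143 in D and 0.187 in A, and on the other chromosomes 0.180 in B, 0.181 in C, 0.168 in D and 0.188 in A. Bulk contents were close but not equal, and strain C at the highest factor had a lower SD than B.

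Early zones, local minima of Trep with a prominence above 1 minute, lay at 10 places on chromosome V in A. They were chosen from A's own profile, so their levels in A are low, and may be close together, partly by that choice. The 4 on the left arm and next to CEN5 were at 60001-61000 (RML2, a mitochondrial ribosomal protein gene), 91001-92000 (SPF1, an ATPase of the endoplasmic reticulum), 146001-147000 (VAB2 and YEA4) and 173001-174000 (YER010C). The other 6 lay farther out on the right arm, at 287001-288000, 315001-316000 (MRX1), 358001-359000 (PRS2, a phosphoribosylpyrophosphate synthetase), 405001-406000 (YCK3, a vacuolar casein kinase), 433001-434000 (GLC7, the catalytic subunit of protein phosphatase 1) and 501001-502000 (RAD4, a nucleotide excision repair gene). In A all 10 were within 4.34 minutes of each other, between 23.98 and 28.3 minutes.

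At these 10 places Trep was more spread in the altered strains than in A, from whose profile they were chosen. They ran from 27.6 to 37.4 minutes in B, from 26.8 to 33.5 minutes in C and from 31.0 to 42.1 minutes in D. The spread was 9.83 minutes in B, 6.72 in C and 11.1 in D. Not all of these places are early zones of C and D. Each strain's own early zones ran from 25.8 to 35.4 minutes in B, from 26.0 to 31.6 in C and from 29.2 to 40.9 in D. At SPF1 Trep was 27.6 minutes in B, 27.1 in C, 31.0 in D and 23.98 in A. At the zone next to CEN5, VAB2 and YEA4, it was 28.1 minutes in B, 26.8 in C, 31.5 in D and 24.2 in A. The delay in D was 7.01 minutes at SPF1, the shortest of the 10, and 7.30 minutes at VAB2 and YEA4, a gap within the noise of single bins.

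Early zones more than 100 kb to the right of CEN5 had the longer delays. At the zone 287001-288000 Trep was 37.4 minutes in B, 33.5 in C, 41.9 in D and 28.3 in A, a delay of 13.6 minutes in D. At YCK3 Trep was 36.3 minutes in B, 33.3 in C, 42.1 in D and 27.5 in A, and its delay of 14.7 minutes in D was the longest of any chromosome V bin. At GLC7 it was 35.0 minutes in B, 31.9 in C, 40.2 in D and 26.7 in A. At RAD4 it was 35.7 minutes in B, 31.2 in C, 39.5 in D and 26.1 in A. The delays in D were 13.5 minutes at both GLC7 and RAD4, within single-bin noise of that at 287001-288000, and at PRS2, where A had 25.1 minutes and D 36.2, the delay was 11.1 minutes. PRS2 and SPF1 were thus close in A and apart in D.

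Most late zones showed less delay than the early zones beside them, but not all. At ARG56 and RNR1, the second a ribonucleotide reductase gene, the late zone 298001-299000 was delayed by 10.2 minutes in D, against 9.99 minutes at the early zone MRX1. At FTR1, the iron permease gene at 461001-462000, Trep was 42.3 minutes in B, 38.3 in C, 43.7 in D and 38.4 in A, so that C did not differ from A and D was 5.37 minutes later. At SWI4, a subunit of the G1/S transcription factor SBF at 383001-384000, it was 39.0 minutes in B, 36.4 in C, 43.4 in D and 35.9 in A. At BRR2, a spliceosomal helicase gene at 531001-532000, beyond the last early zone, it was 42.2 minutes in B, 40.0 in C, 45.5 in D and 38.0 in A. Late zones were also chosen from A's profile, for high values in A, and how far that choice shortens their delay was not tested.

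Flanks were taken between neighbouring early and late zones of A. Their ends are extremes of A's own profile, so the change in Trep along a flank is large in A by that choice, and only the other strains can be set beside each other. From the late region at ACA1 to the early zone at 287001-288000, Trep changed by 10.2 minutes in B, 13.1 in C, 6.24 in D and 16.9 in A. From FTR1 to RAD4 it changed by 6.58 minutes in B, 7.04 in C, 4.18 in D and 12.3 in A. On the long flank from YER010C to ACA1, which spans 67 kb, the change was 18.1 minutes in B, 19.5 in C, 16.3 in D and 21.0 in A. The rate along this flank in kb per minute was 3.25 in B, 3.14 in C, 3.83 in D and 3.20 in A. On the flank from ACA1 to 287001-288000 it was 3.76 in B, 3.26 in C, 6.62 in D and 3.00 in A. These rates are a separate measure and not the length of the flank over the change between its ends. On the right of the late region D changed less than B and C, and on its left the 3 were closer. This order did not hold on every flank, as between PRS2 and SWI4 the change was 7.03 minutes in B, 5.46 in C, 7.23 in D and 10.8 in A.

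Early zones of C and D did not all lie close to those of A. B had 9 early zones, C 8, D 10 and A 10. With the midpoint threshold B had 8, C 7, D 6 and A 10. Within 5 kb of a zone of A, at the ratio of 1.5, lay 9 of 9 zones in B, 5 of 8 in C and 5 of 10 in D. In D the zones nearest to YCK3 and to 287001-288000 lay 18 and 32 kb away. In C no zone was nearer than 34 kb to YCK3 or 25 kb to 287001-288000. Peaks of the ratio itself, taken at 40 minutes in B, 35 in C, 45 in D and 35 in A, numbered 6 in B, 7 in C, 7 in D and 7 in A. Of these, 1 of 6 in B, 4 of 7 in C and 2 of 7 in D were no more than 5 kb from one in A, a smaller share in B than in D. No such overlap of zones or peaks is given here for the other chromosomes. These shares therefore do not show whether chromosome V differs from them. The earliest bin of the chromosome was close to the same place in all strains, at 94001-95000 (ECM10) in B, 97001-98000 (BUD16) in C and D and 91001-92000 (SPF1) in A.

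Runs of neighbouring bins over 10 minutes later in D than in A lay away from CEN5. The longest ran over 49 bins, 254001-303000, from just beyond the late region across the zone at 287001-288000, with a median delay of 12.4 minutes. The next had 26 bins at 394001-420000 around YCK3 (11.9 minutes), 24 at 546001-570000 from ARS501 to the right end (11.1 minutes), 20 at 344001-364000 around PRS2 (10.6 minutes) and 16 at 428001-444000 around GLC7 (12.5 minutes). On the left arm a single run of 9 bins lay at 6001-15000, the left end, with 12.8 minutes. Only 11 bins of chromosome V (2.01%) were over 10 minutes later in B than in A, against 5.44% of all bins tested. They formed short runs, at most 5 bins, and lay at 7001-12000 on the left end and from 548001 on at the right end. No run in D passed 15 minutes. With common scale factors no bin of chromosome V was over 10 minutes later in D than in A, so the runs in D rest on the deposited factors.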

How the data were processed

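Chromosome V was measured in 44 whole-genome libraries of S-phase DNA, and 4 G1 libraries entered only as denominators. The 24 chromatin immunoprecipitation samples of the series were not used here. Per the file headers, each deposited ratio is the reads per 1-kb bin of an S-phase library over those of that strain's G1 library, times a scale factor listed beside it. How the factor was set is not given in the sources used here. The factors ran from 1.039 to 2.0. The submitters' processing notes name Bowtie2 2.2.6, SAMtools 1.7.2, bedtools 2.26.0 and the build sacCer3, with no role or order. Coordinates are 1-based. Gene names came from RefSeq's R64 gene table, the assembly behind that build. CEN5 was placed in the gap between the genes on either side of it, and ARS501 at its stated position.

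Trep was computed over all 11277 bins from a 5-kb running mean (at least 3 bins), isotonic regression in time and the first crossing of a ratio of 1.5. It could be had for 11260 bins. For relative timing, each ratio was divided by its library's median, the area under these values between 15 and 80 minutes was taken, and the median area of all bins was subtracted. It is higher where a bin is earlier, and the scale factor cancels in it. Peaks are local maxima within 10 kb whose prominence exceeds 3 times the single-bin noise. Zones needed a prominence of 1 minute. Windows reached 10 kb from CEN5 and 5 kb from ARS501. Regions named are the landmarks, the early and late zones of strain A, the latest and earliest bins and the longest runs. The planned use of annotated origins and of sequence was not possible, as neither was used here. Computing used Python 3.11.15, numpy 2.4.6, pandas 2.3.3, scipy 1.17.1 and scikit-learn 1.9.0, and Trep was tested on simulated data. With 1 culture per strain no test was run. Depth is unknown.

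Alternatives changed the window, the threshold, the scale factors, the bin filter, the window widths and the peak prominence, and left out each time point in turn. The zones, arms and time classes, and the 15-minute denominator for Trep, were added after seeing the data. The chromosome, its landmarks and these regions were chosen with earlier results of these data known.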

Additional observations from a re-analysis of the deposited data

Results flagged for a closer look

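In relative timing, which is free of the scale factors and higher where a bin is earlier against the genome of its own strain, 3 pairs of effects had opposite signs. None of these differences was tested, since each strain was 1 culture. At CEN5, Pph3 depletion changed relative timing by 1.39 minutes with sld3-R(2A) (D less B) and by -0.05 minutes with SLD3 (C less A), the second being near 0. At ARS501, Pph3 depletion changed it by 2.24 minutes with sld3-R(2A) (D less B) and by -2.04 minutes with SLD3 (C less A). There the sld3-R(2A) allele changed it by 1.00 minutes with Pph3 depleted (D less C) and by -3.35 minutes with Pph3 present (B less A). The flags at ARS501 depend on the denominator, because D less B became -1.57 minutes with the 15-minute library of each strain in place of G1. With that denominator B less A at ARS501 changed sign as well.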

How the results depend on the processing

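No paired analysis was possible because each strain had 1 culture and the labels give no replicate numbers that groups share. Depth is unknown, so single-bin noise is the only measure of precision. Of 351 alternative values for 71 results, 313 stayed within the tolerance (the SD over the 16 chromosome medians, the SD over single bins of a window, or 1.5 times for counts), 35 moved and 3 reversed. A change of sign counted as reversed only where the main value exceeded the tolerance, so some values that moved also changed sign. The 9-kb window, windows of other widths, the bin filter at 30 kb from the ends and a prominence of 5 times the noise moved none of the results run under them.

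Common scale factors, which take out differences in bulk DNA content between strains by construction, gave chromosome V medians of 2.36 minutes for B less A, 1.5 for C less A, 3.45 for D less A, 1.05 for D less B and 1.82 for D less C. At CEN5 they gave 1.59 for B less A, 4.07 for D less A and 2.91 for D less C. At ARS501 they gave 5.04 for B less A, 3.13 for D less A, 0.71 for D less C and, reversed, -0.72 for D less B. The step from CEN5 to ARS501 in D was then 8.75 minutes, the right arm less the left arm 0.25 minutes and the latest less the earliest 137 bins (by mean Trep of B and C) -3.47 minutes in D less A.

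With the 15-minute denominator, ARS501 had 5.62 minutes for B less A and 4.71 for D less B in Trep. The chromosome V interaction was 0.71 minutes, and -0.33 relative to the other chromosomes. In relative timing this denominator gave -0.68 minutes at CEN5 for D less A, against 4.23 with G1. At ARS501 it gave 3.18 for B less A (-3.35 with G1) and -3.77 for the interaction (4.52 with G1). D less B at ARS501 was -1.57, reversed from 2.24 with G1. Correction by each strain's mean profile gave 0.92 minutes for B less A there and, reversed, -0.37 for D less B. All of these relative timing values thus had the opposite sign to those with G1 alone. The midpoint threshold gave an interaction of 0.86 minutes. Bins over 15 minutes later in D than in A were 5 with the 15-minute denominator, 4 with the midpoint and 19 without smoothing, and 0 to 3 when a time point was left out. The causes were not tested. Of 517 values with a time point left out, 513 stayed within the tolerance and none reversed.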

Other observations

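At 20 minutes, before bulk replication, the bins of chromosome V that replicate earliest had ratios below the library median in all 4 strains. The earliest 25% of them (137 bins, by mean Trep of the 4 strains) had a median ratio over the library median of 0.906 in B, 0.821 in C, 0.901 in D and 0.849 in A. The latest 25% had 1.014 in B, 1.021 in C, 0.983 in D and 1.012 in A. On the other chromosomes the earliest 25% had 0.964 in B, 0.899 in C, 0.948 in D and 0.917 in A at 20 minutes. At 15 minutes the earliest 25% of chromosome V had 0.980 in B, 0.975 in C, 1.003 in D and 0.957 in A, and at 25 minutes 1.076 in B, 0.971 in C, 1.029 in D and 1.153 in A. The 20-minute value was thus the lowest of these 3 time points in every strain, and it lay below 1, the level of unreplicated DNA, around CEN5, where the mean ratio was 0.98 in B, 0.86 in C, 0.92 in D and 0.91 in A. Its cause was not tested.

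The bin 116001-117000, which holds URA3, was, among the bins of chromosome V listed in at least 1 table, the only one listed in fewer than 42 of the 44. It was missing from the 35- to 70-minute tables of D and from the 35-minute table of B, and listed in every table of C and A.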
